A study of Mus musculus with 24 samples.

Results

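The 3 loci described here are Ctgf, Cyr61 and Ankrd1, the genes most often used as readouts of YAP and TEAD activity. All peaks and regions of the deposited lists that overlapped a window around each gene were taken, by position alone and without regard to their values. On the mm9 build the windows were chr10:24295000-24340000 for Ctgf, chr3:145290000-145335000 for Cyr61 and chr19:36165000-36215000 for Ankrd1. They held 96 of the 665214 peaks and regions of 23 lists, 23 at Ctgf, 56 at Cyr61 and 17 at Ankrd1.

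The lists came from chromatin immunoprecipitation with sequencing (ChIP-seq) of mouse liver. All animals carried R26-rtTA, a tetracycline-responsive transactivator at the Rosa26 locus, and were given doxycycline in the food for 2 days. Wild-type livers carried no further transgene, tet-Myc livers an inducible Myc, tet-YAP livers an inducible YAP at Col1A1 (the S127A form, an activated mutant, per the study's methods), and tet-Myc/YAP livers both. Lists were used of H3K4me3, H3K27ac, RNA polymerase II, TEAD and Myc in the 4 genotypes, of YAP in the livers with its transgene, and of H3K4me1 in wild-type, and YAP in wild-type or tet-Myc livers was not analysed here. Every combination of antibody and genotype was 1 library, so values are set side by side with no test between genotypes, and no spread between animals could be given. The sources used here do not give age, strain or whether animals were pooled, and the Rosa26 transactivator is not restricted to hepatocytes by its promoter. In whole liver, a stronger signal in some cells and a weaker one in many cannot be told apart.

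YAP is a coactivator without a DNA-binding domain of its own. When the Hippo kinases phosphorylate it, YAP is kept out of the nucleus, and when they do not, it enters and is tethered to chromatin by the TEAD transcription factors. Ctgf (Ccn2) and Cyr61 (Ccn1) encode secreted matricellular proteins of the CCN family, which act on adhesion, migration and matrix deposition, and Ankrd1 encodes an ankyrin repeat protein found at the sarcomere and in the nucleus, best known from heart muscle. Myc binds E-box sequences together with Max, many of them at promoters. H3K4me3 marks promoters, H3K27ac active promoters and enhancers, and H3K4me1 enhancers and promoter flanks.

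RefSeq promoter sequences were at hand for 2 of the 3 genes, and the 250 bases before the start of transcription are shown because YAP reaches its target promoters through TEAD motifs. Capitals mark the TEAD motif GGAATG or its reverse complement CATTCC. Coordinates are those of GRCm38.p6, chr3:145649986-145650235 for Cyr61 and chr19:36119845-36120094 for Ankrd1, both read from the minus strand. They were not placed on the mm9 peaks.
Cyr61: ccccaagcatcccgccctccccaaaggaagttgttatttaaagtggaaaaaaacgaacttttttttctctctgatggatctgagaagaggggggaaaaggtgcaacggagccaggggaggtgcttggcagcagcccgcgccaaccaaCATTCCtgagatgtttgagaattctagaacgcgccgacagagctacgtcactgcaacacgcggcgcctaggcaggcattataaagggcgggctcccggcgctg
Ankrd1: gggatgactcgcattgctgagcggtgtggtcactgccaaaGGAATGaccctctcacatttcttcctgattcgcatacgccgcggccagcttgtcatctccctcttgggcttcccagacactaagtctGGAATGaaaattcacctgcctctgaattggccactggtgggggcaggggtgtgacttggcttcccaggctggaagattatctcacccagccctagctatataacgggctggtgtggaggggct
The Cyr61 promoter held 1 match, on the opposite strand, 103 to 98 bases before the start. The Ankrd1 promoter held 2, at 210 to 205 and at 123 to 118 bases before the start. Among 32851 mouse promoters of this length, 12.6% held the motif on either strand. The E-box CACGTG, present in 6.02% of them, was in neither sequence.

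The lists themselves differed in depth and calling. ChIP tags ranged from 16.9 to 50.6 M over the 14 libraries of TEAD, YAP, Myc and RNA polymerase II. TEAD depth was even (31.6 to 33.1 M), and RNA polymerase II depth was not (20.9 M in wild-type, 50.6 M in tet-Myc, 37.7 M in tet-YAP and 45.8 M in tet-Myc/YAP). The fragment size used for calling was 51 bp for wild-type Myc and 56 bp for tet-YAP YAP, close to the tag size, against 287 to 364 bp elsewhere. Their peaks are therefore narrower, and their fold enrichment is not on the scale of the other lists. The control of the tet-Myc/YAP YAP list held 167.0 M tags against 17.4 M for the ChIP. As a check of the tissue, a window over albumin, a hepatocyte gene, carried H3K4me3, H3K27ac and RNA polymerase II in all 4 genotypes, and its strongest RNA polymerase II peak ranked above at least 99.6% of its list in each.

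TEAD was found at all 3 genes in all 4 genotypes. To read such presence against the genome, it was divided into 58613 tiles of 45 kb, of which 27.9% held a TEAD peak in wild-type livers, 33.8% in tet-Myc, 27.1% in tet-YAP livers and 34.8% in tet-Myc/YAP. YAP lay at 2 of the 3 genes in tet-YAP, Ctgf and Cyr61, where 1.93% of tiles held a YAP peak, and at all 3 in tet-Myc/YAP, where 14% did. Myc was absent from the wild-type windows (4.59% of tiles), lay at Cyr61 in tet-Myc (24.5%) and tet-YAP (13.9%), and at Cyr61 and Ctgf in tet-Myc/YAP (24.1%). RNA polymerase II was present at Ctgf and Cyr61 and absent at Ankrd1 in every genotype, against 19.4%, 25.8%, 22.5% and 23.6% of tiles in the order wild-type, tet-Myc, tet-YAP, tet-Myc/YAP. Ankrd1 thus had TEAD without called polymerase throughout, while Ctgf and Cyr61 had both.

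**Figure D1:**
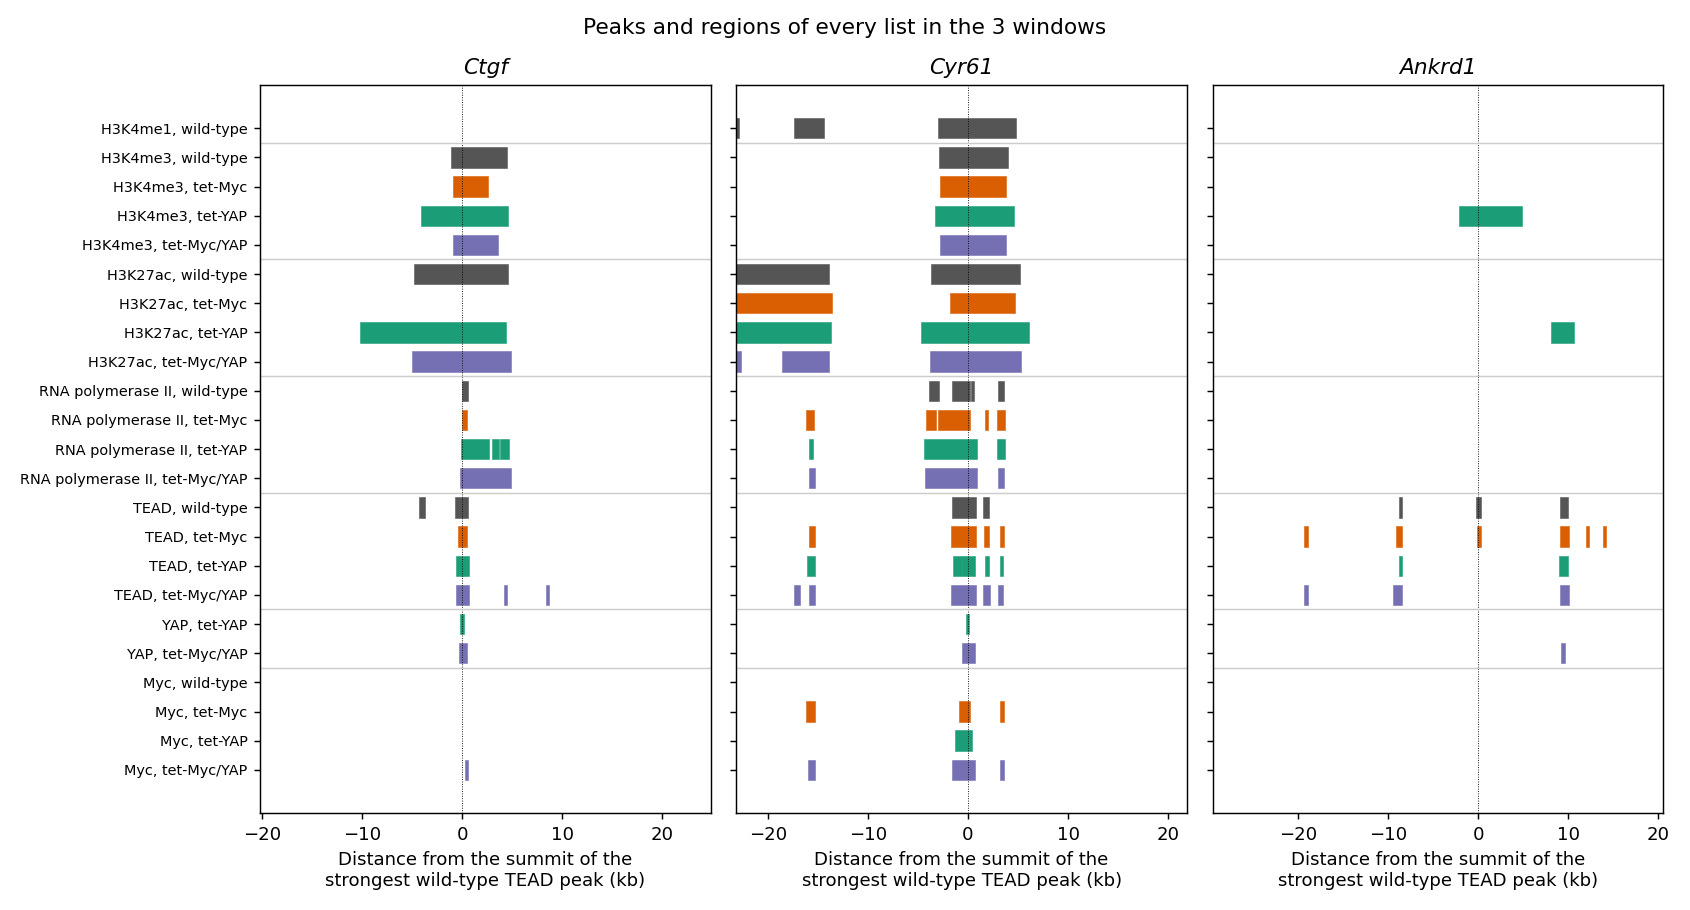
Peaks and regions of all 23 lists in the windows of Ctgf, Cyr61 and Ankrd1. The x axis is the distance in kb from the summit of the wild-type TEAD peak with the highest fold enrichment (dotted line), each row is 1 list, and bars are coloured by genotype and cut at the window edges. TEAD rows are filled at all 3 genes, whereas the RNA polymerase II rows are empty at Ankrd1.

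H3K4me3 lay at Ctgf and Cyr61 in all 4 genotypes and at Ankrd1 in tet-YAP livers. The share of tiles with H3K4me3 was 24.6% in wild-type livers, 24.0% in tet-Myc, 22.1% in tet-YAP livers and 24.5% in tet-Myc/YAP. H3K27ac was found at Cyr61 in all 4 genotypes, at Ctgf in all but tet-Myc, and at Ankrd1 in tet-YAP, against 27%, 28.9%, 28.5% and 28.6% of tiles in the order wild-type, tet-Myc, tet-YAP, tet-Myc/YAP. In wild-type, H3K4me1 covered part of the Cyr61 window only (29.3% of tiles). tet-YAP was thus the genotype in which both marks were called at all 3 genes.

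When TEAD peaks of the 4 genotypes were merged wherever they overlapped by at least 1 bp, the windows held 15 TEAD sites: 4 at Ctgf, 5 at Cyr61 and 6 at Ankrd1. Of these, 5 had a peak in all 4 genotypes, 2 in 3 genotypes, 2 in 2 and 6 in 1. Among all 60936 merged TEAD sites, 35.1% had a peak in all 4. Wild-type livers had a peak at 7 of the 15, tet-Myc at 11, tet-YAP at 7 and tet-Myc/YAP at 11. At 6 sites peaks were called only in livers with the Myc transgene (2 only in tet-Myc, 3 only in tet-Myc/YAP and 1 in both), at 1 site only in wild-type, and at none only in tet-YAP. The share of all merged sites with these patterns was not computed. The whole TEAD lists held 33417 peaks in wild-type livers, 44220 in tet-Myc, 32486 in tet-YAP livers and 52392 in tet-Myc/YAP. The part of list length in these site counts was not tested.

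At Ctgf, a single TEAD site carried nearly all of the signal. It spanned chr10:24314473-24315865 and is called the promoter site here because it lay inside H3K4me3 in all 4 genotypes, as no mm9 gene annotation was used. Its fold enrichment over the control, the ratio given by the peak caller, was 15.85 in wild-type livers, 28.11 in tet-Myc, 25.50 in tet-YAP livers and 78.66 in tet-Myc/YAP. The tet-Myc/YAP value was the highest of the 4, and both single transgenes lay between it and wild-type.

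Ratios to wild-type at this site were 1.77 in tet-Myc, 1.61 in tet-YAP livers and 4.96 in tet-Myc/YAP. The median over TEAD sites with a peak in both lists was 1.36, 1.08 and 1.65, and 73.2%, 87.2% and 97.5% of such sites had a lower ratio than Ctgf. A ratio of 2 or more was reached by 18.7% of sites in tet-Myc, 4.86% in tet-YAP livers and 35.7% in tet-Myc/YAP. At Ctgf it was reached in tet-Myc/YAP alone. Tags at the summit per M ChIP tags (M, 1e6 tags) gave the same order but for the single transgenes, with 3.32 in wild-type livers, 4.43 in tet-Myc, 5.53 in tet-YAP livers and 12 in tet-Myc/YAP. Within their own lists the 4 peaks ranked above 98.0%, 97.9%, 99.0% and 99.9% of TEAD peaks by fold enrichment, so the Ctgf promoter was among the strongest TEAD sites of every liver, wild-type included. The tet-Myc/YAP peak was in place 39 of 52392.

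The other TEAD peaks of the Ctgf window were weak. Wild-type livers had 1 at chr10:24310844-24311430 with a fold enrichment of 3.57, and tet-Myc/YAP livers had 2 at higher coordinates than the promoter site, with 4.39 and 5.66. None of these overlapped a YAP or Myc peak.

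YAP lay on the Ctgf promoter site in both YAP lists, those of the genotypes with the YAP transgene. In tet-YAP the peak spanned chr10:24314971-24315415, with a fold enrichment of 38.43 and 28 tags at the summit, and took place 10 of 1328 by fold enrichment. In tet-Myc/YAP it spanned chr10:24314843-24315697, with a fold enrichment of 7.69 and 26 tags at the summit, in place 3407 of 11719. The Ctgf peak thus stood near the top of the tet-YAP list and above 67.7% of the tet-Myc/YAP list, although the tag heights were alike. The heights are not on the same scale either, since tags were extended to 56 bp in the first list and 364 bp in the second. The YAP summit was 57 bp from the TEAD summit in tet-YAP and 347 bp from it in tet-Myc/YAP.

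Myc was called at Ctgf in tet-Myc/YAP livers only, at chr10:24315447-24315808. This peak was weak, with a fold enrichment of 5.80 that exceeded 8.45% of the list, and its summit lay 390 bp from the TEAD summit. No Myc peak was called there in tet-Myc livers, whose Myc list was the longest.

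RNA polymerase II at Ctgf differed between genotypes in how far it extended. The stretch of the window covered by polymerase peaks was 569 bp in wild-type livers, 557 bp in tet-Myc, 4434 bp in tet-YAP livers and 5073 bp in tet-Myc/YAP. In wild-type and tet-Myc polymerase was thus restricted to the TEAD site, and in both genotypes with the YAP transgene it ran on for several kb to one side of it.

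Covered length in tet-YAP was 7.79 times that of wild-type, a ratio above that of 98.1% of the 11381 tiles with wild-type polymerase, and in tet-Myc/YAP it was 8.92 times (above 96.4% of tiles). A ratio of at least 2 was reached by 23.3% of these tiles in tet-YAP livers and by 36.3% in tet-Myc/YAP. In tet-Myc it was reached by 49.5% of tiles but not at Ctgf, where the ratio was 0.98, above 9.04% of tiles. The median ratio was 1.98 in tet-Myc, 1.30 in tet-YAP livers and 1.54 in tet-Myc/YAP. The wild-type library was the shallowest, and the part of depth in the covered lengths was not tested.

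Peak height at Ctgf followed a similar order. RNA polymerase II had a fold enrichment of 12.53 in wild-type livers, 3.43 in tet-Myc, 14.61 in tet-YAP livers and 26.91 in tet-Myc/YAP. Tags at the summit per M ChIP tags were 2.15, 0.93, 5.01 and 7.03. By both measures tet-Myc was lowest and tet-Myc/YAP highest.

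In tet-Myc the fold enrichment was 0.27 times that of wild-type, and only 13 of 23672 polymerase sites with a peak in both lists had a lower ratio. At least 2 times lower values were found at 2.04% of these sites, and at least 2 times higher values at 8.61%. By tags per M the ratio was 0.43, lower than at all but 0.90% of sites. The control moved with this value. The summit height divided by the fold enrichment, which is the local background the caller used, was 13.7 tags at this peak against a median of 8.25 in the tet-Myc list, and 3.59 against 3.59 in wild-type. It was raised in the same way in tet-YAP (12.9 against 5.83) and in tet-Myc/YAP (12 against 6.99). By this measure the polymerase control held more tags at the Ctgf peak than at the median peak in the 3 transgenic genotypes. The part of this in the fold enrichment was not tested. The TEAD lists, each with its own control, had another pattern at the Ctgf promoter site. There the local background was above the list median in wild-type (6.94 against 5.629) and tet-YAP (7.02 against 5.008). It was close to the list median in tet-Myc (4.98 against 4.911) and tet-Myc/YAP (4.996 against 4.956).

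In tet-YAP the fold enrichment of polymerase was 1.17 times that of wild-type and the tags per M 2.33 times, and in tet-Myc/YAP these ratios were 2.15 and 3.27. A fold enrichment at least 2 times that of wild-type was seen at 4.17% of polymerase sites in tet-YAP and at 7.77% in tet-Myc/YAP. By fold enrichment, 62.3% of sites in tet-YAP livers and 94.2% in tet-Myc/YAP had a lower ratio than Ctgf, and by tags per M 99.7% and 99.8%. Polymerase at Ctgf was therefore above wild-type with the YAP transgene by both measures, and how far depended on the measure.

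**Figure D2:**
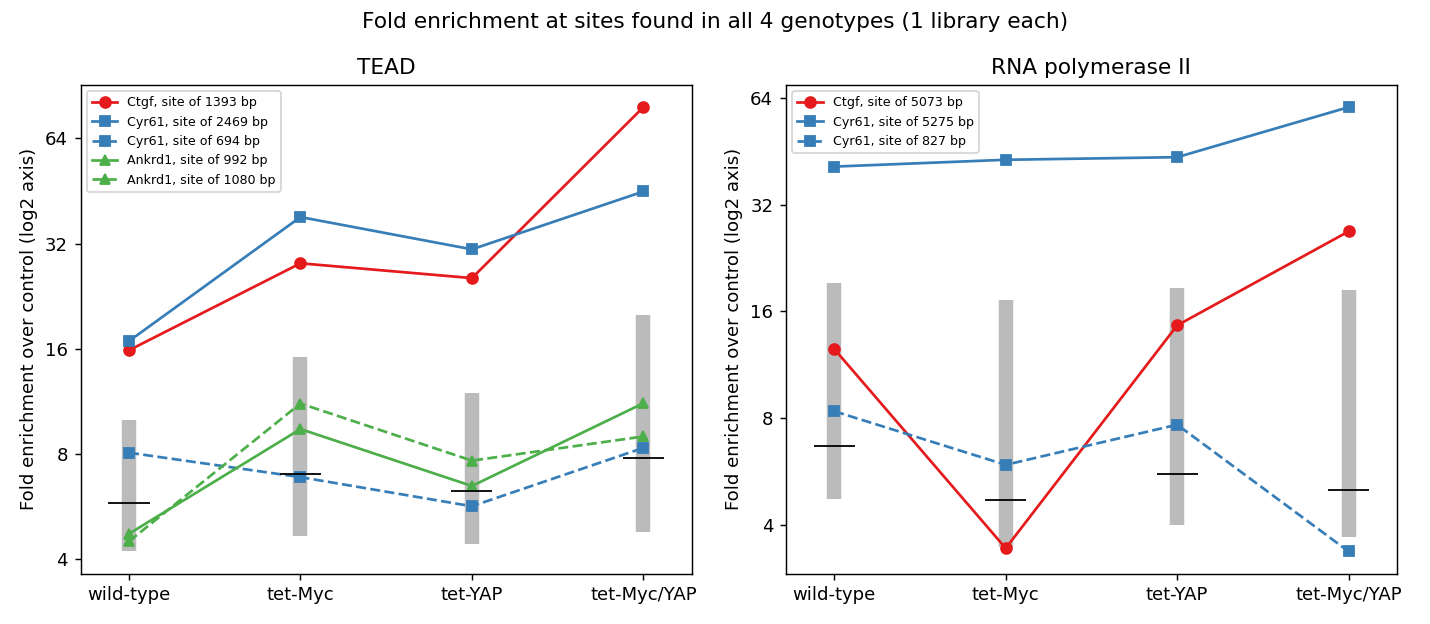
Fold enrichment over the control (log2 axis) of TEAD and RNA polymerase II at the window sites with a peak in all 4 genotypes, 1 library per point. Grey bars span the 10th to 90th percentile of each list and black ticks its median. At Ctgf, TEAD goes from 15.85 in wild-type to 78.66 in tet-Myc/YAP, and polymerase dips to 3.43 in tet-Myc.

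The marks at Ctgf moved alongside polymerase in part. H3K27ac covered 9382 bp of the window in wild-type livers, 0 bp in tet-Myc, 14537 bp in tet-YAP livers and 9914 bp in tet-Myc/YAP. The tet-Myc list, with 20524 regions longer than the wild-type list of 17821, held none at Ctgf. Of all wild-type H3K27ac regions, 1.35% were likewise overlapped in tet-YAP and tet-Myc/YAP but not in tet-Myc. By the score of the list, the wild-type region was weak, above 12.1% of regions, and the tet-YAP and tet-Myc/YAP regions were above 46.6% and 77.7%.

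H3K4me3 covered 5643 bp at Ctgf in wild-type livers, 3512 bp in tet-Myc, 8660 bp in tet-YAP livers and 4498 bp in tet-Myc/YAP. The tet-YAP stretch was the longest and the tet-Myc stretch the shortest, as for H3K27ac. By score the order was another: the region ranked above 39.0% of its list in wild-type livers, 38.4% in tet-Myc, 54.2% in tet-YAP livers and 93.3% in tet-Myc/YAP. Median region widths differed between the lists, from 2524 bp in tet-Myc/YAP to 3498 bp in tet-YAP. The parts of calling and signal in these lengths were not tested. No H3K4me1 region was called in the Ctgf window in wild-type, and 28.9% of wild-type H3K4me3 regions were likewise without one.

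**Figure D3:**
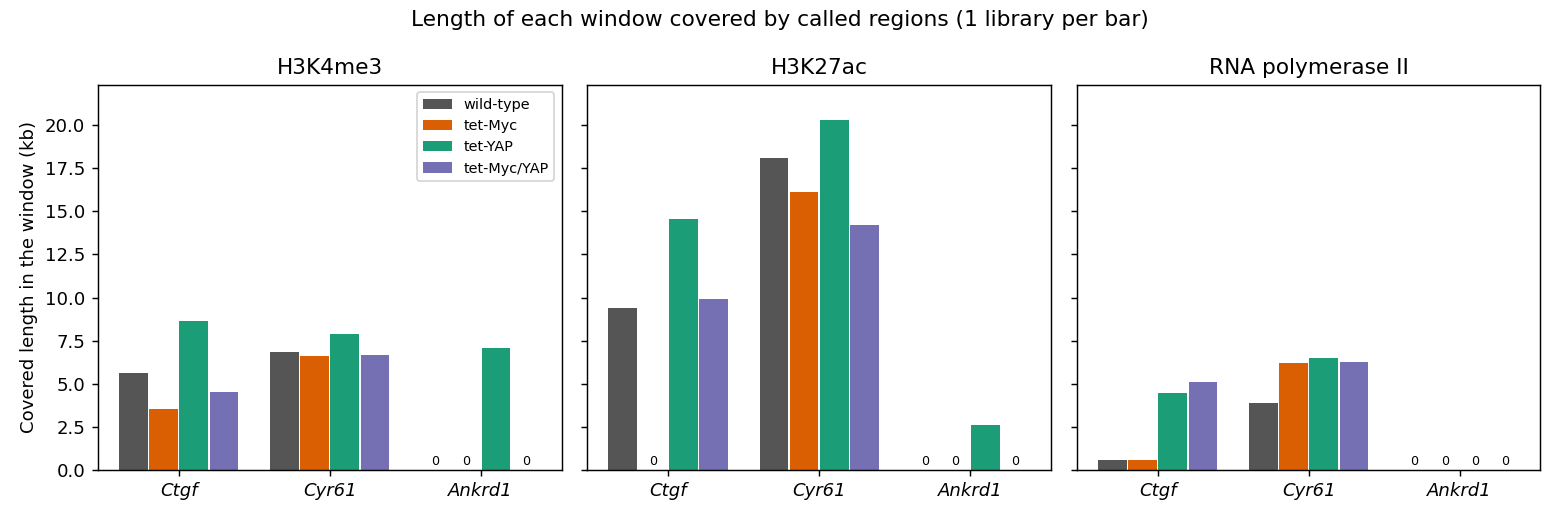
Length of each window, in kb, covered by H3K4me3, H3K27ac and RNA polymerase II regions, with 1 library per bar and 0 printed where no region was called. At Ctgf H3K27ac is 0 in tet-Myc, and polymerase covers 4434 and 5073 bp in the genotypes with the YAP transgene against 569 and 557 bp in the others.

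Cyr61 was the most densely occupied of the 3 genes, with peaks in 13 of 14 narrow lists and regions in 9 of 9 broad lists. Its main TEAD site, chr3:145311467-145313935, had a fold enrichment of 16.84 in wild-type livers, 38.13 in tet-Myc, 30.82 in tet-YAP livers and 45.12 in tet-Myc/YAP. Tags at the summit per M were 2.87, 5.98, 4.82 and 6.89. All 3 transgenic livers were above wild-type, with tet-Myc above tet-YAP.

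The ratios of fold enrichment to wild-type were 2.26 in tet-Myc, 1.83 in tet-YAP livers and 2.68 in the double transgenics, above those of 87.8%, 92.8% and 81.2% of TEAD sites. Within the lists the site ranked above 98.4% of peaks in wild-type livers, 99.2% in tet-Myc, 99.6% in tet-YAP livers and 98.8% in tet-Myc/YAP. Cyr61 therefore stood in the same top range as Ctgf in every genotype, with a smaller difference between wild-type and tet-Myc/YAP.

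A second site about 2 kb away, chr3:145314609-145315302, also had TEAD in all 4 genotypes. Its fold enrichment was 8.07 in wild-type livers, 6.87 in tet-Myc, 5.67 in tet-YAP livers and 8.33 in tet-Myc/YAP. It was lowest in tet-YAP, where its ratio to wild-type of 0.70 was above that of 9.26% of TEAD sites and its rank was 36.4% against 79.5% in wild-type. Tags per M gave another order, with 1.36, 1.71, 1.54 and 1.5 in the order wild-type, tet-Myc, tet-YAP, tet-Myc/YAP, so wild-type was lowest by that measure. Next to it, chr3:145316094-145316695 had TEAD in the 3 transgenic genotypes and not in wild-type, with 4.82 in tet-Myc, 4.71 in tet-YAP livers and 5.59 in tet-Myc/YAP. Some 16 kb to the other side of the main site, chr3:145297087-145297884 again had TEAD in the 3 transgenic genotypes, with 6.42, 6.68 and 7.39. The neighbouring chr3:145295764-145296313 had TEAD in tet-Myc/YAP only, where its fold enrichment of 15.16 exceeded that of 82.9% of the list. Both of these distant sites lay in a stretch with H3K27ac in all 4 genotypes and with wild-type H3K4me1.

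YAP at Cyr61 was confined to the main TEAD site in the 2 lists. The tet-YAP peak had a fold enrichment of 22.53 and 16 tags at the summit and took place 87 of 1328. The tet-Myc/YAP peak had a fold enrichment of 13.31 and 45 tags and took place 190 of 11719. These places stood above 91.7% of the first list and 98.2% of the second, but the lists differ in length: among the 1328 strongest peaks of the tet-Myc/YAP list the peak stood above 85.7%, against 93.4% for the tet-YAP peak when both were counted by place. The Ctgf peak of that list was not among its 1328 strongest.

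Myc occupied the same positions of Cyr61 in tet-Myc and tet-Myc/YAP. In tet-Myc its 3 peaks, at the distal site, the main site and the transgenic-only site beside it, had a fold enrichment of 9.60, 11.80 and 6.31. In tet-Myc/YAP the values were 9.25, 12 and 6.16, so both genotypes with the Myc transgene were alike at each in fold enrichment. Tags per M at the summit were 2.32, 2.86 and 1.11 in tet-Myc, and 1.72, 2.78 and 1.12 in tet-Myc/YAP. The distal site was thus higher in tet-Myc by that measure. Its local background was 5.0 tags against a list median of 3.66 in tet-Myc, and 3.14 against 3.21 in tet-Myc/YAP. By rank the genotypes were not alike: the 3 peaks stood above 60.9%, 73.3% and 26.7% of the tet-Myc list. In tet-Myc/YAP they stood above 41.5%, 58.3% and 11.5%. In tet-YAP the main site alone had Myc, with a fold enrichment of 4.67, above 12.8% of that list. Each of these 7 peaks overlapped a TEAD peak of the same genotype, but the share of all Myc peaks that do so was not computed.

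RNA polymerase II at Cyr61 was strong in every genotype. The main peak had a fold enrichment of 41.01 in wild-type livers, 42.87 in tet-Myc, 43.60 in tet-YAP livers and 60.36 in tet-Myc/YAP, and ranked above 98.8%, 99.4%, 99.3% and 99.96% of its list. In tags per M at the summit it was 7.84, 7.02, 9.22 and 9.27. Wild-type and tet-Myc swapped order between these measures, and the genotypes with the YAP transgene were higher in both, in tet-YAP by little in fold enrichment. The ratios of fold enrichment to wild-type were 1.05 in tet-Myc, 1.06 in tet-YAP livers and 1.47 in tet-Myc/YAP. These were above those of 42.7%, 51.3% and 77.1% of polymerase sites, and by tags per M of 32.7%, 81.2% and 73.7%. The tet-YAP ratio by fold enrichment was thus near the median of 1.05. A weaker polymerase site at chr3:145315996-145316822 went the other way, with a fold enrichment of 8.36, 5.90, 7.66 and 3.36. Its ratios to wild-type of 0.71, 0.92 and 0.40 were above those of 11.4%, 32.5% and 0.71% of sites. By tags per M they were 0.66, 0.81 and 0.55, above 9.50%, 30.5% and 5.97%. The local background of the tet-Myc/YAP peak was 10.7 tags against a list median of 6.99, and its part in the fold enrichment was not tested.

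Polymerase covered 3874 bp of the Cyr61 window in wild-type livers, 6212 bp in tet-Myc, 6500 bp in tet-YAP livers and 6270 bp in tet-Myc/YAP. The 3 transgenic genotypes had about equal lengths, and their ratios to wild-type (1.60, 1.68 and 1.62) were in the middle of the tiles, above 38.1%, 67.6% and 52.8%. At a −log10 q of at least 10, where 2475 bp were covered in wild-type, these ratios were 2.35, 2.63 and 2.30. Their place among the tiles was not computed at that threshold. Polymerase was also called on the distal TEAD and Myc site near chr3:145297087 in the 3 transgenic genotypes, with a fold enrichment of 9.0 in tet-Myc, 6.13 in tet-YAP livers and 7.37 in tet-Myc/YAP, and not in wild-type. At that element TEAD and polymerase were thus called in the same 3 genotypes. The share of all sites with this pattern was not computed. The wild-type polymerase library was the shallowest, with 20.9 M tags, and its list the shortest, with 39181 peaks. The part of depth in the lack of a wild-type peak was not tested.

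H3K4me3 at Cyr61 covered 6832, 6598, 7888 and 6650 bp in the order wild-type, tet-Myc, tet-YAP, tet-Myc/YAP, and its score ranked above 65.9%, 60.7%, 74.8% and 90.1% of the list. H3K27ac covered 18109, 16100, 20316 and 14191 bp. Lengths therefore differed less at Cyr61 than at Ctgf, and tet-YAP again had the longest. Set against the tiles with the mark in the same list, the H3K4me3 lengths were above 72.0%, 80.1%, 79.1% and 81.4%. By that measure tet-Myc/YAP was highest. The H3K27ac lengths were above 68.8%, 67.3%, 75.1% and 68.0%, with tet-YAP highest. Median H3K27ac region widths were 8148, 7037, 7294 and 5946 bp. Wild-type H3K4me1 formed 3 regions with 10946 bp in the window.

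**Figure D4:**
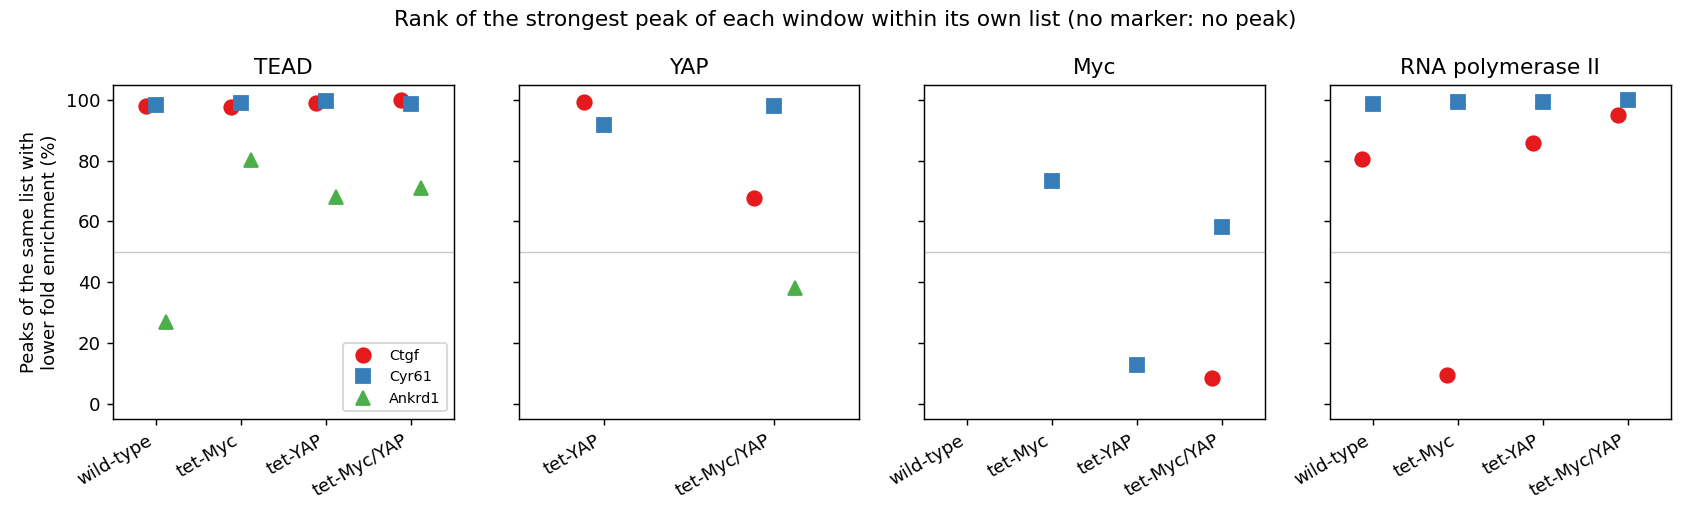
Rank of the strongest peak of each gene within its own list, as the percentage of peaks of that list with lower fold enrichment, for TEAD, YAP, Myc and RNA polymerase II. Markers stand for genes, and a missing marker for no peak. TEAD at Ctgf and Cyr61 is above 97% of peaks in every genotype, and polymerase at Ctgf falls from 80.5% in wild-type to 9.5% in tet-Myc.

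Ankrd1 had TEAD peaks in every genotype, 3 in wild-type livers, 6 in tet-Myc, 2 in tet-YAP livers and 3 in tet-Myc/YAP, but they were far weaker. By fold enrichment, the strongest of each list ranked above 26.9% of TEAD peaks in wild-type livers, 80.2% in tet-Myc, 68.1% in tet-YAP livers and 71.1% in tet-Myc/YAP. These peaks did not lie at the same site in every genotype. By −log10 q they ranked above 19.8%, 82.6%, 64.0% and 68.2%, and by pileup above 12.7%, 83.1%, 58.7% and 65.4%. Another wild-type peak, chr19:36203564-36204482, ranked above 15.9% by fold enrichment, but above 49.3% by −log10 q and 70.7% by pileup. The wild-type rank thus depended on the measure. At chr19:36185066-36186057 the fold enrichment was 4.73, 9.43, 6.48 and 11.18 in the order wild-type, tet-Myc, tet-YAP, tet-Myc/YAP. At chr19:36203474-36204553 it was 4.50, 11.16, 7.66 and 8.98. Both sites had their lowest fold enrichment in wild-type. Ratios to wild-type at the first were 1.99 in tet-Myc, 1.37 in tet-YAP livers and 2.36 in tet-Myc/YAP, above those of 81.2%, 76.0% and 74.7% of TEAD sites. At the second they were 2.48, 1.70 and 2.00, above 91.2%, 89.9% and 64.1%. The median over all such sites was 1.36, 1.08 and 1.65, so wild-type was the lower at most TEAD sites as well.

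For the second of these sites the difference rested on the measure. Tags per M at the summit were 1.33 in wild-type livers, 2.09 in tet-Myc, 1.17 in tet-YAP livers and 1.35 in tet-Myc/YAP, so tet-Myc was highest. By this measure the ratios to wild-type were above those of 71.2%, 34.9% and 16.5% of TEAD sites. The local background of the wild-type peak was 9.78 tags against a list median of 5.63. Another site, chr19:36194268-36194769, had TEAD in wild-type (4.91) and tet-Myc (6.82), one at chr19:36175107-36175605 in tet-Myc (8.63) and tet-Myc/YAP (8.07), and a further 2 in tet-Myc only (5.62 and 9.20).

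YAP was called at Ankrd1 in tet-Myc/YAP livers and not in tet-YAP livers. The peak, chr19:36203724-36204135, had a fold enrichment of 6.22, above 38.2% of its list, and lay on the second shared TEAD site with its summit 130 bp from the TEAD summit. Its −log10 q of 8.13 was the lowest of the 5 YAP peaks. The tet-YAP list was the shorter of the 2, with 1328 peaks against 11719, and the part of list length in its lack of a peak was not tested.

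No Myc or RNA polymerase II peak was found in the Ankrd1 window in any genotype. The marks were called in tet-YAP alone: H3K4me3 over 7086 bp at chr19:36192312-36199397 and H3K27ac over 2607 bp at chr19:36202544-36205150. The first spanned the TEAD site seen in wild-type and tet-Myc, and the second the site that bore YAP in tet-Myc/YAP. Both were faint, above 7.75% and 9.44% of their lists by score. Regions without a counterpart in the other 3 genotypes made up 1.34% of tet-YAP H3K4me3 and 4.55% of tet-YAP H3K27ac regions. When the H3K27ac lists were cut to equal length by score, the H3K27ac region was lost. The tet-YAP H3K4me3 list was itself the shortest of its 4, so the H3K4me3 region could not be lost in this way.

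Read from TEAD, YAP overlapped 2 of the 8 TEAD peaks of the windows in tet-YAP and 3 of 11 in tet-Myc/YAP, against 3.16% and 21.1% of all TEAD peaks of these livers. Of 1328 tet-YAP YAP peaks, 47.1% were found again in tet-Myc/YAP, as were both of the windows. Myc overlapped none of 7 TEAD peaks in wild-type, 3 of 11 in tet-Myc, 2 of 8 in tet-YAP and 4 of 11 in tet-Myc/YAP, the tet-YAP pair lying under a single Myc peak. Over all TEAD peaks these shares were 7.83%, 51.8%, 29.7% and 50.2%. TEAD with YAP was thus seen at the strongest site of Ctgf and Cyr61 in both lists, and Myc at TEAD peaks of the windows was no more frequent than over the genome.

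The 14 narrow lists can also be used to ask which other TEAD sites looked like these. The presence pattern of the Ctgf site over the 14 lists was shared with 0.0131% of 60936 TEAD sites, that of the main Cyr61 site with 0.281%, and that of the Ankrd1 site bearing YAP with 0.202%. By the mean absolute difference of ranks over the 14 lists (in percentage points, absent peaks set at 0), the nearest site to Cyr61 was chr15:88697272-88698984, with a difference of 2.81. For Ankrd1 it was chr1:58666472-58668144, with 3.32. Ctgf had no such near match: its nearest, chr11:120113494-120114723, differed by 8.17. The lists share the livers of a genotype and differ in length, so these are descriptions only.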

How the data were processed

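The submitters' processing notes name BWA 0.6.2, SAMtools and MACS2 2.0.9 and the mm9 build. The 14 narrow lists were, per the file headers, called per library against 14 separate controls, with a p-value cutoff of 1.00e-05, 51-bp tags and at most 2 duplicate ChIP tags per position. The deposited narrow lists give, as computed by the authors, the summit pileup as a signal in tags, the fold enrichment as a ratio over the control, and −log10 p and −log10 q values. The 9 deposited broad lists give a score whose scale is not stated, used here only for ranks within a list, and the sources used here do not give their depth. Chromatin for YAP was fixed with DSG and formaldehyde, the rest with formaldehyde. The sample titled input has no list and was not analysed here.

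Groups were taken from the sample titles. Peaks were assigned and merged by an overlap of at least 1 bp in Python 3.11.15 with numpy 2.4.6 and pandas 2.3.3. These overlap steps were tested on simulated data (2000 peaks, 500 planted partners), with 10 of 10 checks recovered, 1 of them against bedtools 2.31.1. Rank is the percentage of peaks of the same list with lower fold enrichment (score for broad lists). A background value is the share of all tiles, peaks, sites or regions of the same list that meet the same condition. It is given beside the counts for which it was computed. None was computed for TEAD or polymerase sites with a peak in only some genotypes, for Myc peaks on TEAD or for changes of direction between backgrounds. For ratios, the strongest peak of a genotype at a merged site was used. Sites were named by a rule: the member peaks themselves and, for likeness, the TEAD site of each window with the highest mean rank over genotypes. Other YAP target genes had been planned but were not run, since no mm9 annotation was used. The albumin window was placed from general knowledge of mm9. Synonyms and promoters are from RefSeq GRCm38.p6, and motifs were searched on both strands. Figures were drawn with matplotlib 3.10.9. Members, lists and windows were chosen with earlier results of these data known. With 1 library per group no test was made, and counts cover no variation between animals.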

Additional observations from a re-analysis of the deposited data

Results flagged for a closer look

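In 7 cases a transgene went with a higher value in one background and a lower one in the other. None of these differences was tested, as each rests on 4 single libraries. The cases were picked by this change of direction alone. They came from the TEAD and polymerase sites with a peak in all 4 genotypes and from the covered lengths of H3K4me3, H3K27ac and polymerase. How often such a change occurs over all sites was not computed, so the count of 7 describes no trait of these genes. RNA polymerase II fold enrichment at the Ctgf promoter site was 0.27 times as high with the Myc transgene alone as in wild-type, and 1.84 times as high with both transgenes as with YAP alone, which is a ratio of 0.149 between the effects. By tags per M the effects were 0.43 and 1.40. Polymerase cover at Ctgf changed by -12 bp with the Myc transgene alone and by 639 bp in the presence of the YAP transgene (difference -651 bp). At Cyr61 it changed by 2338 and -230 bp (difference 2568 bp).

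At the second shared TEAD site of Cyr61 (694 bp), the Myc transgene went with a fold enrichment 0.85 times as high without the YAP transgene and 1.47 times as high with it, but with tags per M 1.26 and 0.97 times as high, so both directions turned. The YAP transgene gave a fold enrichment of 0.70 times without and 1.21 times with the Myc transgene, and tags per M of 1.14 and 0.88 times, which again turned both directions. For either transgene the ratio of effects on fold enrichment was 0.580. At the Ankrd1 TEAD site of 1080 bp, the YAP transgene went with 1.70 times the fold enrichment without and 0.80 times with the Myc transgene (ratio of effects 2.12), and with 0.88 and 0.65 times the tags per M. H3K27ac at Cyr61 covered 2207 bp more with the YAP transgene alone than in wild-type, and its change from tet-Myc to tet-Myc/YAP was -1909 bp, a difference of 4116 bp.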

How the results depend on the processing

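No paired analysis was possible because each combination of antibody and genotype was 1 library, so no replicate could be left out either. The 50 TEAD, YAP and Myc peaks of the windows became 87 when windows were extended by 25 kb on both sides. The 11 TEAD peaks with YAP or Myc became 7 with summits within 200 bp, 7 with a −log10 q of at least 10, and 3 with lists cut to equal length by q, where no Myc peak was left in any window. The number of RNA polymerase II peaks in tet-Myc/YAP was 0.80 times that of wild-type, and the covered bases were 2.55 times. At a −log10 q of at least 10 the ratio of peak numbers was 1.0. In lists cut to equal length, the tet-Myc polymerase peak at Ctgf was lost. The rank of the Ctgf YAP peak was 31.6 percentage points higher in tet-YAP than in tet-Myc/YAP, 34.2 by −log10 q and 37.1 by pileup. The share of tiles with wild-type TEAD was 27.9% and with 50 kb tiles 29.6%. With tags per M in place of fold enrichment, chosen after seeing the data, the ratios of polymerase to wild-type at Ctgf moved to 0.43 in tet-Myc livers, 2.33 in tet-YAP livers and 3.27 in tet-Myc/YAP livers, and the ratio at Cyr61 in tet-Myc reversed from 1.05 to 0.89. The rank of the tet-Myc polymerase peak at Ctgf was 9.5% by fold enrichment, 36.9% by −log10 q and 59.0% by pileup. At a −log10 q of at least 10, 1 of 3 wild-type TEAD peaks at Ankrd1 was left, and the Ankrd1 YAP peak and the tet-YAP Myc peak at Cyr61 were lost. The other 22 settings of the main values stayed within 1.5 times of the value given. The widest shifts among them were 34 peaks in place of 50 with lists cut to equal length, and the TEAD ratio at Ctgf in tet-Myc/YAP. By tags per M that ratio was 3.63 in place of 4.96. For values of single genotypes, genes and peaks, 91 settings stayed and 94 moved past the limit set for that kind of value. The cause of these changes was not tested.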
